A study of Mus musculus with 18 samples.

Results

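The 31 genes described here are the contractile and cytoskeletal genes of smooth muscle, taken from the count table by their gene symbols without regard to their values. All 31 were among the 45777 genes of the table, and all 31 passed the filter on low counts, which kept 18848 genes. By role, 15 belong to the contractile filaments and the switch that controls them, 11 to the intermediate filaments, dense plaques and dense bodies that anchor those filaments, 3 to the membrane, and 2 are transcriptional regulators. The list also holds 9 genes that many cell types use (Tpm1, Flna, Actn1, Vcl, Srf, Cald1, Csrp1, Pdlim7 and Cav1). The other 22 are expressed mainly in muscle.

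RNA was extracted from colon pieces of 8-week-old male C57BL/6J mice raised germ-free and sequenced as 18 libraries in 6 groups of 3 that the labels call biological replicates and letter A, B and C. DKO mice lacked both Lao1 and Il4i1, LAO1KO mice lacked Lao1, and WT mice carried both genes; the 2 genes encode L-amino acid oxidases. In each of the 3 genotypes one group drank 2.5% dextran sulfate sodium (DSS) in water for 24 hours and the other drank sterile water. DSS is a sulfated polysaccharide that injures the colon epithelium. The labels do not say which stretch of colon was taken, how much of the wall each piece held, or whether mice shared a litter or cage. The p-values below set differences between group means against the spread between these samples within groups, and no p-value is given for the spread itself.

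Smooth muscle forms the muscularis propria and the thin muscularis mucosae of the gut wall, and also surrounds its blood vessels. It contracts when calcium and calmodulin activate myosin light chain kinase, which phosphorylates the myosin regulatory light chain so that myosin can pull on actin; myosin phosphatase reverses this. Many of its genes are switched on by serum response factor, which binds a short DNA element called the CArG box, together with its partner myocardin.

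The CArG box (CC, then 6 bases that are each A or T, then GG, a pattern that reads the same on both strands) was searched in the 250 bases before the RefSeq start of each gene on GRCm38.p6. Promoter entries were found for 27 of the 31 members; Actg2, Myh11, Tagln and Myocd had none. The box was found in 4 of the 27 (14.8%), and in 1.62% of all 27025 genes with a promoter entry. With boxes in which 1 core base is G or C also counted, 8 of the 27 (29.6%) and 9.78% of all genes had one. A match describes the letters only and is not a binding site. The windows of the 4 members with a box follow, 5′ to 3′ on the gene's strand with the box in capitals. The smooth muscle actin gene Acta2 follows them, with 2 boxes that each hold 1 G or C in the core.
Srf, chr17:46556163-46556412, minus strand: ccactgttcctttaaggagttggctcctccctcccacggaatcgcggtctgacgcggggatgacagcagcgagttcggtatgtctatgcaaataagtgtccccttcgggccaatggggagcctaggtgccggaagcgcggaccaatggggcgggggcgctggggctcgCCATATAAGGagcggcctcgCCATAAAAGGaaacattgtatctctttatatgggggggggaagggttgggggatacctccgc
Myl9, chr2:156775214-156775463, plus strand: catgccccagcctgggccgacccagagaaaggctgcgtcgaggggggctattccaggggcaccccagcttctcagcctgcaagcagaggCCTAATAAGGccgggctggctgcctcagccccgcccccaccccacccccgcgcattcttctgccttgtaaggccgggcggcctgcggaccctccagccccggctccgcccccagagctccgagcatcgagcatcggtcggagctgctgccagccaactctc
Vcl, chr14:20929148-20929397, plus strand: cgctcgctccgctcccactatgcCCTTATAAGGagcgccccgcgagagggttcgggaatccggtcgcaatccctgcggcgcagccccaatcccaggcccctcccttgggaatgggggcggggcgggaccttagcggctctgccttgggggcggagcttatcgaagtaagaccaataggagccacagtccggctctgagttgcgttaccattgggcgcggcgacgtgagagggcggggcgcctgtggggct
Ldb3, chr14:34588608-34588857, minus strand: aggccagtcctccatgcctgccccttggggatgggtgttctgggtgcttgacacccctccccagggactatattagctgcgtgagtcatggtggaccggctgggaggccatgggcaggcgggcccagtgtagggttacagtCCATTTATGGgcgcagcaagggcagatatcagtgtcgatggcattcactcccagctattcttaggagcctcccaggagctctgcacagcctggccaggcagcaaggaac
Acta2, chr19:34255374-34255623, minus strand: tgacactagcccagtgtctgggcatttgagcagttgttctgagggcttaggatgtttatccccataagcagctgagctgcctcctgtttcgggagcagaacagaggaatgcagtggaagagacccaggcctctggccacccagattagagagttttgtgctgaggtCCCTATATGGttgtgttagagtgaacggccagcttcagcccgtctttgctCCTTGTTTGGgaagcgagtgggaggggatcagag

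Srf held 2 boxes, starting 82 and 62 bases before its start. The box of Myl9 began 161 bases before the start, and that of Vcl 227 bases before it. Ldb3 has a second RefSeq start, from which the same box lies at 35 instead of 109 bases. The Acta2 boxes began 84 and 34 bases before the start.

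Library totals ran from 26003174 to 36553193 counts, and a member held between 44 counts (Itga8) and 66450 counts in a library, so counting error weighs most on Itga8. As a check of the labels, Lao1 had 0 to 10 counts in each of the 18 libraries and so could not separate the genotypes. Il4i1 and Il4i1b together had 0 to 12 counts in DKO libraries and 12 to 66 in the others. In libraries on DSS, 14.3 to 44.9% of counts came from 13 mitochondrial mRNAs, against 6.89 to 20.7% on water. WT DSS C was the highest, and its scaling factor of 0.625 was the lowest. WT water B and LAO1KO water A lay far from the rest on the first principal component (-84.2 and -65.5), and WT DSS C on the second (-68.5). Medians of the members, counts of ranges that do not overlap and the pooled spread within groups are given with and without these 3 libraries. So are the calls of DSS against water in the knockouts and the average, and the test of Srf in WT. Medians of the other gene lists are given with all 18 libraries only.

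Colon smooth muscle RNA was plain in every library: the 31 members took between 0.516% (DKO water A) and 1.75% (WT water B) of all counts. Levels between genes are compared here as CPM (counts scaled to library size) per kilobase of merged exon, averaged over the 18 libraries with the SD over libraries. Myl9, the myosin regulatory light chain, was the most abundant at 643 ± 188. Actg2, the actin typical of gut smooth muscle, followed at 550 ± 217, Tagln (transgelin, which binds actin) at 514 ± 173 and Acta2 at 461 ± 128. These 4 lay within each other's spread over libraries. Myh11, the smooth muscle myosin heavy chain, came well below them at 122 ± 38.8. The regulator Srf stood at 16.0 ± 3 and its partner Myocd at 1.61 ± 0.499, near the bottom with the integrin subunit Itga8 at 0.629 ± 0.207.

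In 5 of the 6 groups, libraries differed from each other more in these genes than in most genes. The SD of log2 CPM within a group, pooled over the 6 groups, had a median of 0.45 over the members and 0.28 over all tested genes, and 26 of the 31 members lay above the median of all genes. Without the 3 libraries that stand apart these were 0.42, 0.23 and 28 of 31. Group by group, the median was 0.33 to 0.54 over the members and 0.17 to 0.29 over all genes in 5 groups, and 0.23 for both in LAO1KO DSS. The pooled SD was widest for Cnn1 (calponin, an actin-bound brake on contraction) at 0.68 and Actg2 at 0.67, followed by Kcnmb1, a subunit of the calcium-activated potassium channel, at 0.62. It was narrowest for Srf at 0.19, Vcl (vinculin, which anchors actin at the membrane) at 0.22, and Ldb3, a PDZ and LIM domain protein of muscle, at 0.24. The 22 mainly muscular members had a median of 0.46 and the 9 broad ones 0.37. Without the 3 libraries that stand apart, the pooled SD was widest for Actg2 at 0.60. It was then 0.56 for both Cnn1 and Kcnmb1, and 0.10 for Srf. In whole tissue, fewer muscle cells and less RNA per muscle cell cannot be told apart.

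The mean log2 CPM of the 31 members, weighted equally and with the 9 broad ones included, gives each library 1 level for the list. It was 6.81, 7.43 and 7.32 in DKO DSS A, B and C, 7.25, 7.37 and 7.14 in LAO1KO DSS, and 6.54, 7.35 and 7.04 in WT DSS. On water it was 6.25, 7.11 and 7.10 in DKO, 7.51, 7.07 and 6.64 in LAO1KO, and 7.15, 7.69 and 7.27 in WT. The lowest and highest libraries, DKO water A and WT water B, thus differed by 1.44 on the log2 scale, or 2.71-fold. Group means were 7.19 ± 0.33 in DKO DSS, 7.25 ± 0.11 in LAO1KO DSS and 6.97 ± 0.41 in WT DSS, against 6.82 ± 0.49 in DKO water, 7.07 ± 0.44 in LAO1KO water and 7.37 ± 0.28 in WT water (SD, n = 3 each). Every DSS group overlapped the water group of its genotype. LAO1KO DSS spanned 1.17-fold between its lowest and highest library, and LAO1KO water 1.84-fold. In 4 groups a single library carried much of the spread. The SD was 0.08 without DKO DSS A, 0.22 without WT DSS A, 0.01 without DKO water A and 0.08 without WT water B. In LAO1KO DSS it was 0.08 to 0.16 with 1 library left out, so which group is tightest turns on single libraries.

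**Figure D1:**
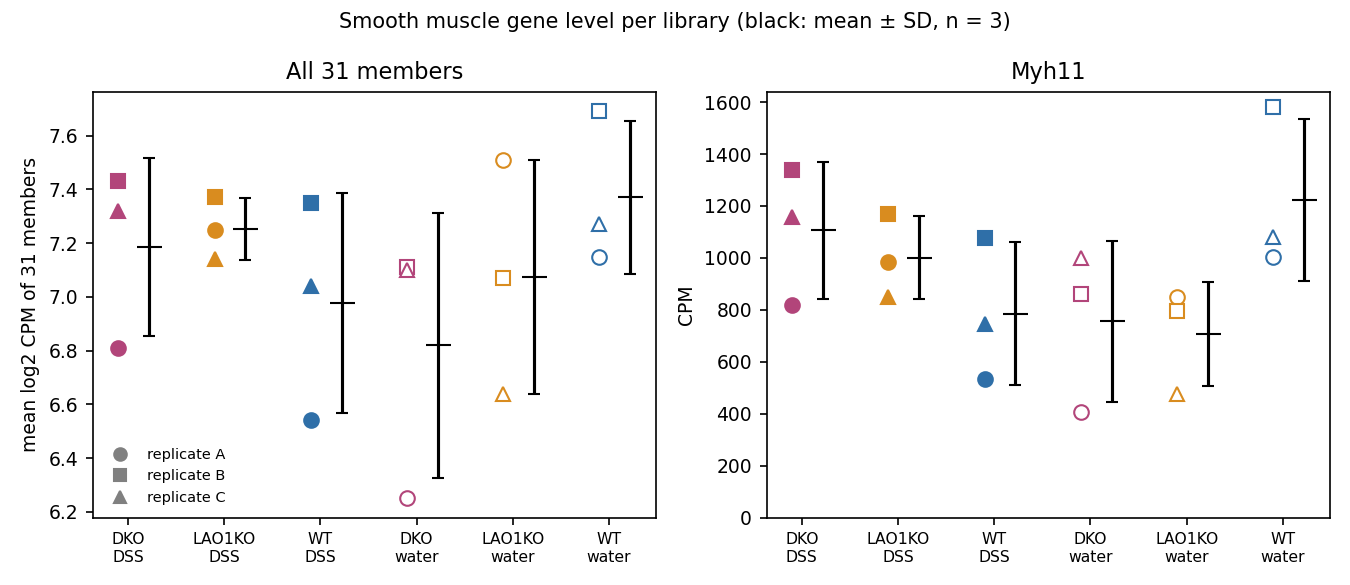
Left, mean log2 CPM of the 31 members in each library; right, Myh11 in CPM, with DSS groups (filled) to the left of water groups (open) and black bars for the mean ± SD of 3 libraries. DKO water A is the lowest point of both plots (6.25 and 406) and WT water B the highest (7.69 and 1580), and each DSS group overlaps its water group on the left.

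Most members moved as a block between libraries. One axis held 75.6% of the variance of all 31 members within groups, and the second 11.4%. In DKO DSS, replicate A held the lowest value of 30 of the 31 genes, in DKO water replicate A that of 29, in LAO1KO water replicate C that of 29 and in WT DSS replicate A that of 28. In WT water, replicate B held the highest value of 27 genes. Other ends were less uniform: DKO water B held the highest value of 14 genes and WT water A the lowest of 20. In LAO1KO DSS, replicate C held the lowest value of 21 genes and replicate B the highest of 21. Each replicate was named because it had the lowest or highest mean of these same members in its group, so high counts are partly built in. Neither these counts nor the shares of the axes were set against all genes. Pearson's r between a member and the mean of the other members, over 18 libraries with group means removed, had a median of 0.88 and exceeded 0.8 for 22 genes; libraries share depth and tissue makeup, so this is a description. Over the 15 libraries left without the 3 that stand apart, the first axis held 80.8%, the median r was 0.93 and 25 genes exceeded 0.8. Over all 18, r reached 0.98 for Csrp1, a LIM protein of actin bundles, 0.97 for Myl9, and 0.96 for Myh11, Tagln, Smtn and Mylk.

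A few members stood outside the block. Ldb3 had an r of 0.06 with the others and Ppp1r14a, which encodes CPI-17, an inhibitor of myosin phosphatase, had 0.35. Cav1, the caveolin that coats membrane pits in muscle, fat and endothelium, had 0.57, and Srf had 0.64. Over the 15 libraries, Ldb3 had 0.18 and Ppp1r14a 0.34. Ldb3 measured 18.7, 23.4 and 24.5 CPM in DKO DSS, 22.0, 34.7 and 22.4 in LAO1KO DSS, 24.5, 23.6 and 34.9 in WT DSS, 35.3, 28.7 and 37.3 in DKO water, 26.6, 29.6 and 28.7 in LAO1KO water, and 22.9, 22.6 and 26.5 in WT water. Its highest group was thus DKO water, which had the lowest mean of the whole module.

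**Figure D2:**
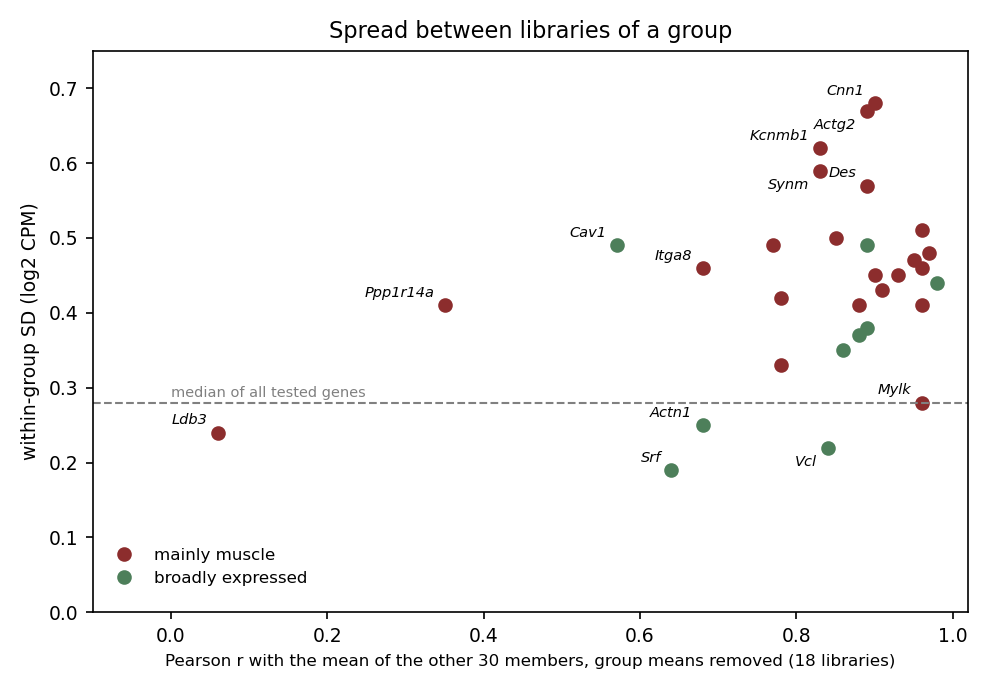
Within-group SD of log2 CPM of each member against its Pearson r with the mean of the other 30 members over 18 libraries, group means removed; red points are mainly muscular genes, green points broadly expressed ones, and the dashed line is the median SD of all tested genes (0.28). Cnn1 and Actg2 have the widest spread (0.68 and 0.67), and Ldb3 (0.06) and Ppp1r14a (0.35) lie apart to the left.

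The filament genes show the pattern library by library. Myh11 (chr16:14194535-14291372, minus strand, GRCm38) measured 820, 1338 and 1159 CPM in DKO DSS, 985, 1168 and 849 in LAO1KO DSS, and 534, 1078 and 746 in WT DSS. On water Myh11 measured 406, 862 and 1000 CPM in DKO, 848, 794 and 478 in LAO1KO, and 1005, 1580 and 1082 in WT. All 3 LAO1KO DSS libraries exceeded all 3 LAO1KO water libraries, at 849 against 848 CPM for the nearest pair, while the other 2 genotypes overlapped.

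Actg2 measured 551, 937 and 863 CPM in DKO DSS, 944, 1090 and 619 in LAO1KO DSS, and 548, 1208 and 477 in WT DSS. On water Actg2 measured 305, 905 and 958 CPM in DKO, 1475, 684 and 460 in LAO1KO, and 1003, 1525 and 860 in WT. It overlapped between DSS and water in all 3 genotypes, with a 3.21-fold range inside LAO1KO water alone. Acta2 measured 731, 1506 and 1117 CPM in DKO DSS, 1196, 1366 and 909 in LAO1KO DSS, and 607, 1039 and 942 in WT DSS. On water Acta2 measured 452, 1064 and 975 CPM in DKO, 1384, 877 and 695 in LAO1KO, and 955, 1294 and 1114 in WT. Its groups overlapped in the same way.

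Tagln measured 724, 1246 and 1069 CPM in DKO DSS, 1120, 1194 and 1089 in LAO1KO DSS, and 623, 1267 and 1010 in WT DSS. On water Tagln measured 421, 866 and 833 CPM in DKO, 1886, 820 and 635 in LAO1KO, and 1013, 1525 and 1036 in WT. The 3 LAO1KO DSS libraries lay close together, inside the wide range of LAO1KO water. Cnn1 measured 302, 418 and 472 CPM in DKO DSS, 407, 436 and 344 in LAO1KO DSS, and 235, 601 and 262 in WT DSS. On water Cnn1 measured 164, 428 and 460 CPM in DKO, 977, 352 and 240 in LAO1KO, and 563, 919 and 445 in WT. LAO1KO water A was the highest of all 18 libraries for both genes.

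Desmin (Des), the intermediate filament protein that ties the contractile lattice together, measured 635, 681 and 806 CPM in DKO DSS, 850, 839 and 686 in LAO1KO DSS, and 542, 1201 and 656 in WT DSS. On water Des measured 337, 780 and 771 CPM in DKO, 1485, 679 and 476 in LAO1KO, and 854, 1449 and 684 in WT. Its DSS and water groups overlapped in every genotype.

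The remaining members are given by their lowest and highest library. Among the contractile genes, Myl9 ran from 293 to 1107 CPM, the kinase gene Mylk from 310 to 710, and the tropomyosin genes Tpm1 from 658 to 1816 and Tpm2 from 439 to 1462. Caldesmon (Cald1), which binds actin and myosin, ran from 74.8 to 274 CPM, Smtn from 74.6 to 261, and Lmod1, a nucleator of actin filaments, from 24.3 to 74.0. DKO water A was the lowest library for all 7 of these. The small heat shock protein gene Hspb6 ran from 10.1 to 37.1 CPM, with the lowest value in LAO1KO water C, and Ppp1r12b from 65.9 to 174 CPM, with the lowest in WT DSS A.

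Among the anchoring genes, Flna ran from 314 to 1051 CPM, Csrp1 from 224 to 659 and the PDZ and LIM gene Pdlim7 from 35.7 to 92.3, each lowest in DKO water A, as was Pdlim3, a PDZ and LIM protein of the actin cytoskeleton, which ran from 55.4 to 162 CPM. Synpo2, whose product binds actin and alpha-actinin, ran from 53.5 to 141 CPM and was lowest in WT DSS A. Vcl ran from 86.7 to 167 CPM and was lowest in LAO1KO water C; 2090 bases of its exons overlap those of Ap3m1 on the opposite strand. At the membrane, Kcnmb1 ran from 2.77 to 16.9 CPM, lowest in DKO water A, and Cav1 from 41.5 to 114 CPM, lowest in WT DSS A.

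Synm (synemin, a partner of desmin) measured 82.8, 111 and 92.9 CPM in DKO DSS, 110, 118 and 101 in LAO1KO DSS, and 70.1, 161 and 82.0 in WT DSS. On water Synm measured 52.7, 79.0 and 107 CPM in DKO, 230, 94.1 and 72.7 in LAO1KO, and 138, 304 and 110 in WT. WT water B and LAO1KO water A stood far above the rest. Actn1, an alpha-actinin that crosslinks actin, measured 94.9, 105 and 102 CPM in DKO DSS, 97.8, 105 and 75.4 in LAO1KO DSS, and 63.5, 94.8 and 64.2 in WT DSS. On water Actn1 measured 59.2, 91.5 and 82.3 CPM in DKO, 65.7, 79.7 and 62.5 in LAO1KO, and 108, 127 and 91.9 in WT. Its DSS libraries all lay above the water libraries in DKO and overlapped them in LAO1KO and WT. Pgm5 (aciculin, a protein of adherens-type muscle junctions) measured 84.3, 229 and 174 CPM in DKO DSS, 139, 177 and 126 in LAO1KO DSS, and 65.8, 123 and 125 in WT DSS. On water Pgm5 measured 56.3, 123 and 113 CPM in DKO, 107, 117 and 81.6 in LAO1KO, and 100, 166 and 147 in WT. DSS and water overlapped in DKO and WT for this gene, and did not in LAO1KO.

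**Figure D3:**
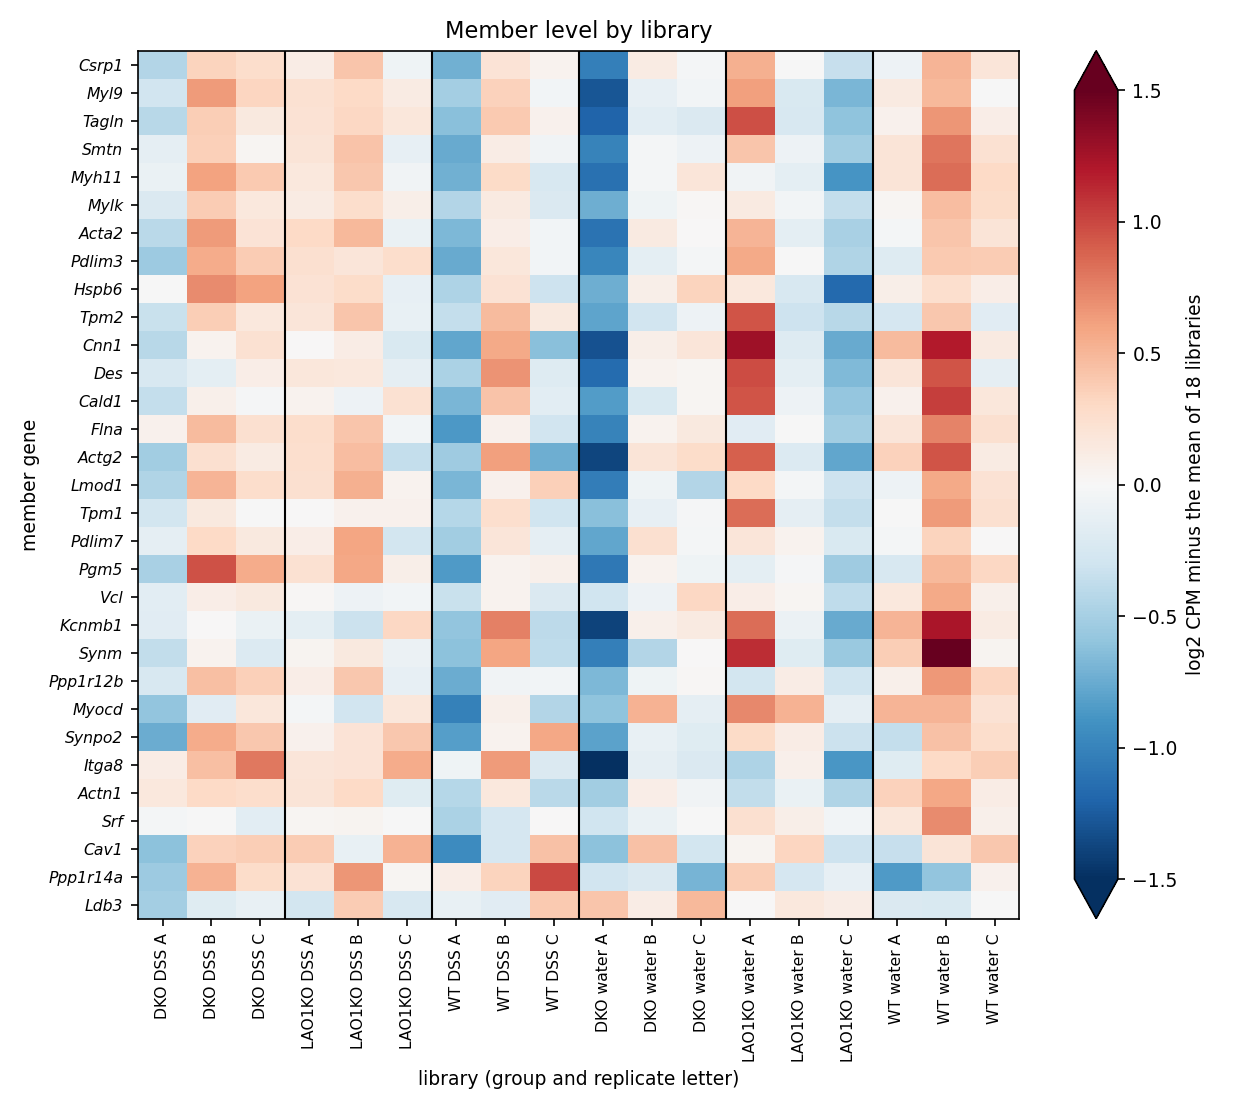
Log2 CPM of each member minus its mean over the 18 libraries (colour, from -1.5 in blue to 1.5 in red), with genes ordered by how closely they follow the other members and columns by group. DKO water A is blue in nearly every row and WT water B red, while Ldb3 at the bottom shows neither pattern.

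The proportions between members also varied. Per count of Myh11, LAO1KO water A had 1.74 of Actg2, 1.15 of Cnn1, 1.72 of Tpm2 (a tropomyosin) and 0.271 of Synm, the highest of all 18 libraries for all 4 ratios. Elsewhere the ratio of Actg2 to Myh11 ran from 0.639 (WT DSS C) to 1.12 (WT DSS B). The ratio of Synm to Myh11 was next highest in WT water B at 0.193 and in LAO1KO water C at 0.152, and lowest in DKO DSS C at 0.0801. Hoxa9, a gene of the posterior body plan that is no member, was high in some of the same libraries: 53.2 CPM in LAO1KO water A, 44.0 in WT water B, 39.8 in WT DSS B and 16.1 in WT water A, against 3.43 to 8.92 in the other 14. Hoxa13, which marks the hindmost gut, had 19.2 CPM in WT water B and 2.61 in LAO1KO water A. The part of position along the colon in these ratios was not tested.

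**Figure D4:**
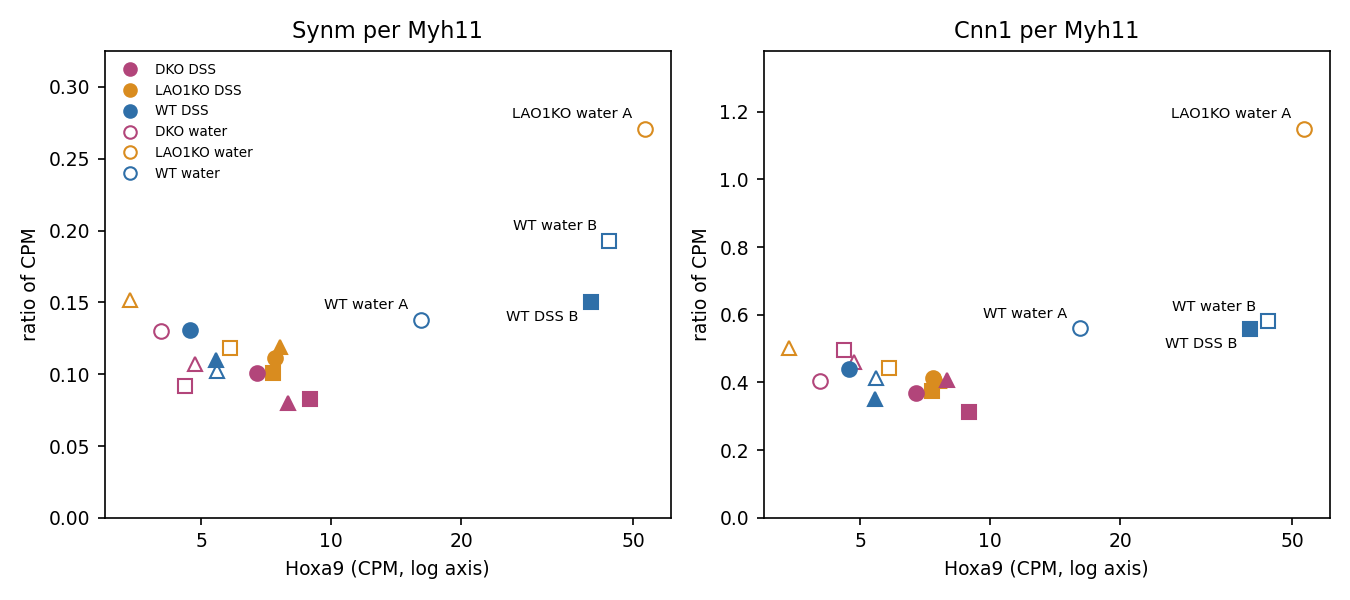
Ratio of Synm (left) and Cnn1 (right) to Myh11, both in CPM, against Hoxa9 CPM on a log axis, 1 point per library with DSS filled and water open. LAO1KO water A, with the highest Hoxa9 (53.2), has the highest ratio in both plots (0.271 and 1.15), and the libraries with Hoxa9 at 3.43 to 8.92 CPM form the cloud at the left.

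In WT mice, where the question is whether a day of DSS changes the muscle of the wall, the module was lower on DSS but the genes seldom passed the test. The log2 fold change (DSS against water) was negative for 28 of the 31 members, while 51.9% of all genes had a positive one. Members move together between libraries, so their signs are not independent of each other. The median of the members was -0.40, against 0.02 for all genes. Single libraries moved that median: it was -0.20 without WT DSS A, -0.25 without WT water B and -0.28 without the 3 libraries that stand apart. With all libraries the median was -0.38 over the 22 mainly muscular members and -0.44 over the 9 broad ones, Srf among them. Only Srf passed (edgeR quasi-likelihood test, Benjamini-Hochberg adjusted p under 0.05 over 18848 genes), and it fell. That is 1 of 31 members, where 12.9% of all tested genes passed; 7 members and 29.5% of all genes had an unadjusted p under 0.05. Srf (chr17:46548329-46556175, minus strand, GRCm38) measured 32.9, 38.2 and 45.9 CPM in WT DSS and 51.2, 74.7 and 48.1 CPM in WT water. The WT DSS libraries all lay below the WT water libraries. Srf averaged 39.0 ± 6.54 CPM in WT DSS and 58.0 ± 14.5 CPM in WT water (SD, n = 3 each), a log2 fold change of -0.57 (SE 0.15, adjusted p = 0.0228 by edgeR).

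WT water B carried the highest Srf. Without that library the fold change was -0.35 (adjusted p = 0.14), without WT DSS A it was -0.49 (adjusted p = 0.0789), and without all 3 libraries that stand apart it was -0.51 (adjusted p = 0.0298), each by edgeR. Mitochondrial mRNAs took 26.9, 26.1 and 44.9% of counts in WT DSS and 7.65, 6.89 and 9.08% in WT water; with those genes left out of the table Srf stood at -0.60 (adjusted p = 0.0174 by edgeR).

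Libraries with the same letter deviated together in the WT mice (r of 0.19, 0.17 and 0.22 over genes for A, B and C), so the fit with the letter as a block is given beside this result. Both block fits below also fit the letters in the knockouts, and the SEs of the WT calls rest on all 18 libraries. In the knockouts the letters did not all deviate together (0.26, 0.18 and 0.07 in DKO, 0.04, 0.02 and -0.30 in LAO1KO). With the letters as a block over all 18 libraries, 4 members passed, where 14.2% of all genes did, all lower on DSS: Srf, Ppp1r12b (a targeting subunit of myosin phosphatase), Flna (filamin A, which crosslinks actin) and Actn1. With the letters as a block within each genotype, 9 passed by edgeR, where 13.9% of all genes did: Ppp1r14a was higher, and Myh11, Smtn, Ppp1r12b, Flna, Actn1, Vcl, Pgm5 and Srf were lower. In that fit Myh11 had a log2 fold change of -0.67 (SE 0.18, adjusted p = 0.0323), Flna -0.75 (SE 0.18, adjusted p = 0.019) and Ppp1r12b -0.63 (SE 0.12, adjusted p = 0.00779). DESeq2 called 5 members, against 18.8% of the genes to which it gave an adjusted p, and limma voom 4, against 18.3% of all genes.

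The ranges of 7 members did not overlap between WT DSS and WT water, as was so for 33.8% of all tested genes; without the 3 libraries that stand apart they were the same 7, against 53.1%. Ppp1r14a lay above (log2 fold change 0.93, SE 0.30, adjusted p = 0.0537 by edgeR), and Smtn, Ppp1r12b, Flna, Vcl, Myocd and Srf lay below. Myocd, the muscle-specific partner of Srf, measured 4.88, 10.4 and 7.29 CPM in WT DSS and 14.0, 14.0 and 11.5 CPM in WT water. Its log2 fold change was -0.81 (SE 0.30, adjusted p = 0.0873 by edgeR) and DESeq2 gave an adjusted p of 0.048. Smtn encodes smoothelin, a cytoskeletal protein of contractile smooth muscle, and its log2 fold change was -0.62 (SE 0.29, adjusted p = 0.169 by edgeR).

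Some marker genes of other cells of the wall differed in the same WT comparison, in which 12.9% of all genes passed. Of 5 fibroblast markers, 3 fell on DSS, namely Pdgfra (log2 fold change -1.21), Col1a1 (-1.16) and Col3a1 (-1.31), and the summed fibroblast markers ran from 229 to 532 CPM in WT DSS and from 531 to 889 CPM in WT water. The enteric glia marker S100b rose (1.10), as did 1 of 5 enteric neuron markers, Prph (0.98). The glia markers Sox10 and Gfap did not pass. None of the 3 markers of interstitial cells of Cajal, the 5 of vascular mural cells or the 4 of endothelium passed. The part of these cells in the muscle result was not tested.

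In the knockout genotypes most members had positive values on DSS, and no member passed. In DKO the log2 fold change (DSS against water) was positive for 29 members and for 52.3% of all genes. Its median over the members was 0.37, against 0.02 for all genes. That median was 0.15 without DKO water A and 0.21 without DKO DSS B. edgeR called 0 members where 0.0159% of all genes passed; 2 members (Itga8 and Ldb3) and 9.59% of all genes had an unadjusted p under 0.05. DESeq2 and limma voom called 0 members, against 1.58% and 2.35% of genes. In LAO1KO the log2 fold change was positive for 21 members and for 52.3% of all genes. Its median over the members was 0.17, against 0.02 for all genes. Its direction rests on single libraries: the median was -0.03 without LAO1KO water C, 0.03 without LAO1KO DSS B, 0.11 without LAO1KO water B and 0.40 without LAO1KO water A. edgeR called 0 members where 0.196% of all genes passed; 1 member (Actn1) and 15.6% of all genes had an unadjusted p under 0.05. DESeq2 called 0, against 4.91% of genes, and limma voom 10 of 31, against 26.7% of all genes.

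The voom fit weights libraries by their quality and gave LAO1KO water A a weight of 0.187 and LAO1KO DSS A one of 6.27. Its 10 calls were Myh11, Acta2, Myl9, Tagln, Smtn, Hspb6, Flna, Actn1 and Itga8, all higher on DSS, and Ldb3, lower. Without LAO1KO water A, WT water B and WT DSS C, edgeR still called 0 members in LAO1KO and in DKO, with medians of 0.40 and 0.38.

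Itga8, the integrin alpha8 subunit that links smooth muscle to matrix, was the member furthest above its water level in both knockouts. It measured 4.71, 5.95 and 7.51 CPM in DKO DSS and 1.51, 3.96 and 3.75 CPM in DKO water, with no overlap (log2 fold change 0.98, SE 0.34, adjusted p = 0.365 by edgeR). In LAO1KO it measured 4.95, 5.03 and 6.42 CPM on DSS and 3.15, 4.59 and 2.38 CPM on water, again with no overlap (0.69, SE 0.34, adjusted p = 0.336 by edgeR). In WT it measured 4.15, 6.79 and 3.76 CPM on DSS and 3.84, 5.36 and 5.61 CPM on water, and the groups overlapped (-0.01, SE 0.34, adjusted p = 0.994 by edgeR).

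Srf measured 44.5, 45.4 and 41.0 CPM in DKO DSS and 37.1, 42.5 and 45.3 CPM in DKO water, and 46.7, 47.0 and 45.3 CPM in LAO1KO DSS and 53.9, 48.4 and 44.2 CPM in LAO1KO water. The groups overlapped in both knockouts. Myocd measured 6.54, 8.77 and 11.1 CPM in DKO DSS and 6.47, 14.2 and 8.96 CPM in DKO water, and 9.68, 8.08 and 11.1 CPM in LAO1KO DSS and 16.3, 14.2 and 8.98 CPM in LAO1KO water, again overlapping. Its log2 fold change was -0.17 (SE 0.30) in DKO and -0.46 (SE 0.30) in LAO1KO, and neither passed.

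Between DKO DSS and DKO water, 3 members did not overlap, against 18.8% of all tested genes: Actn1 and Itga8 lay above and Ldb3 below. Between LAO1KO DSS and LAO1KO water, Myh11, Pgm5 and Itga8 lay above, 3 members against 19.3% of all genes. These shares are below those of all genes. Without LAO1KO water A, 15 members lay above in LAO1KO DSS, against 34.3% of all genes in either direction.

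**Figure D5:**
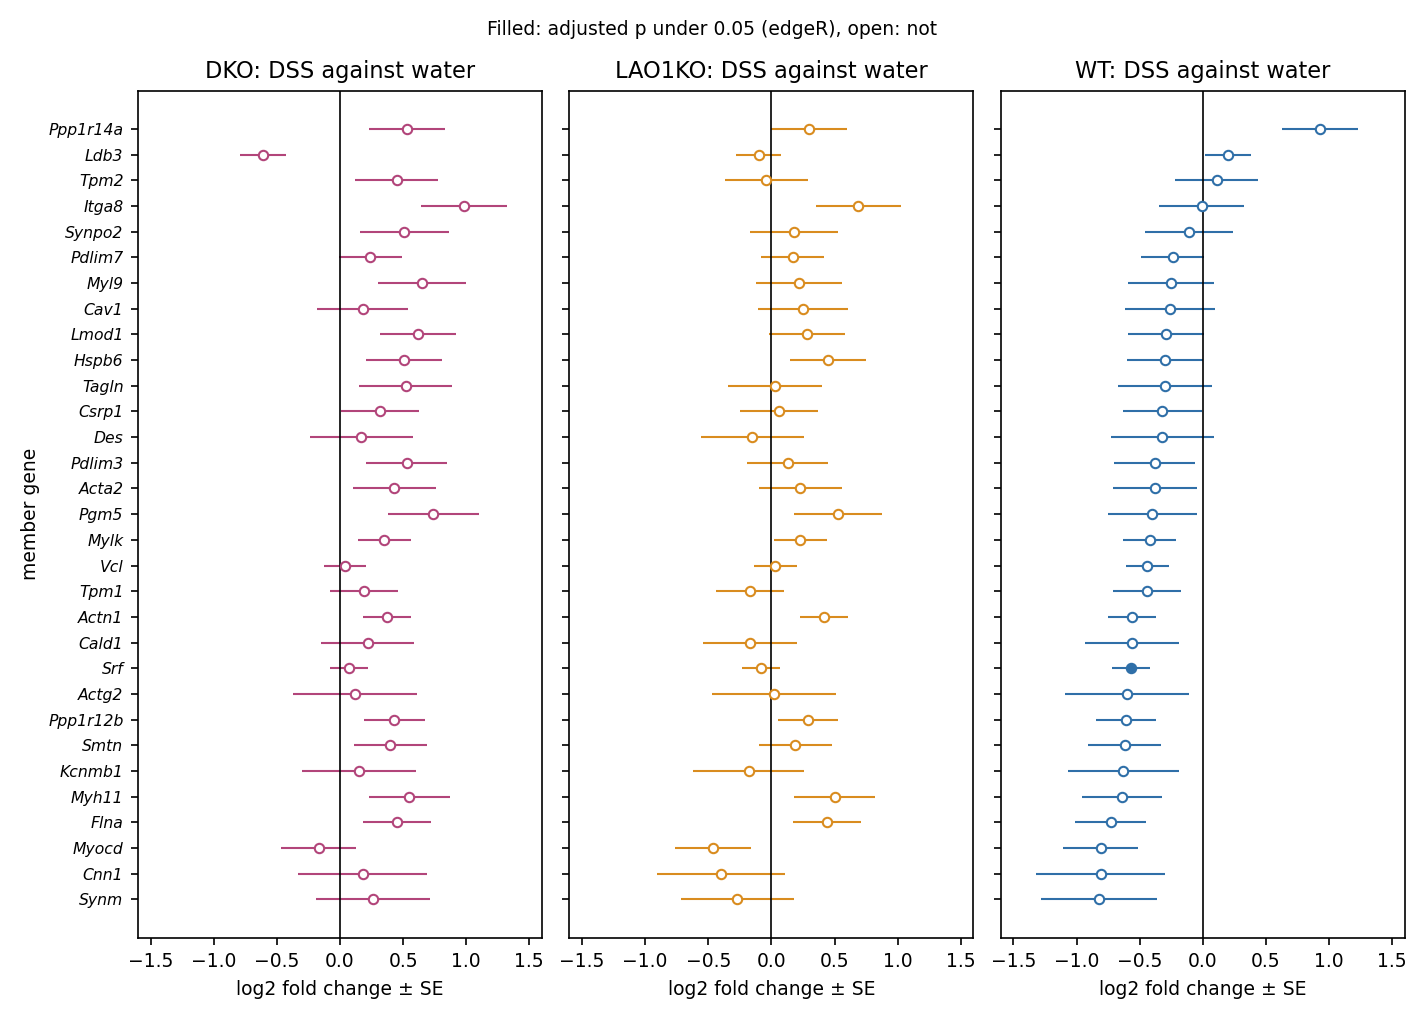
Log2 fold change of each member, DSS against water, in DKO, LAO1KO and WT mice, with bars of 1 SE from the edgeR fit; genes are ordered by the WT value. Srf in WT (-0.57) is the only filled point, and most points lie right of 0 in DKO (median 0.37) and left of it in WT (median -0.40).

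The average over the 3 genotypes with equal weight joins medians of opposite sign: 0.37 in DKO, 0.17 in LAO1KO and -0.40 in WT. In the average, the median log2 fold change of the members was 0.06, against 0.03 for all genes. That median was -0.03 to 0.10 with 1 library left out, and 0.14 without the 3 libraries that stand apart. With all libraries, the 1 member that passed was Ppp1r14a, which rose, where 15.9% of all genes passed. Ppp1r14a (chr7:29289308-29293801, plus strand, GRCm38) measured 16.7, 35.2 and 29.5 CPM in DKO DSS, 28.5, 38.7 and 24.9 in LAO1KO DSS, and 26.1, 30.8 and 48.6 in WT DSS. On water it measured 20.1, 21.1 and 15.1 CPM in DKO, 31.5, 20.6 and 22.4 in LAO1KO, and 13.6, 16.2 and 25.5 in WT. WT DSS lay wholly above WT water, while the 2 knockouts overlapped. The averaged log2 fold change was 0.59 (SE 0.17, adjusted p = 0.0321 by edgeR). It was 0.53 in DKO, 0.30 in LAO1KO and 0.93 in WT.

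The call on Ppp1r14a is close to the threshold: leaving out 1 library at a time, it ended for 10 of the 18 libraries, with log2 fold changes of 0.49 to 0.60 and adjusted p between 0.0506 and 0.0845 by edgeR in those fits. In 3 of them another member passed instead: Myocd, lower on DSS, without LAO1KO water C or DKO water A, and Itga8 without LAO1KO water B. Without the 3 libraries that stand apart it was 0.52 (adjusted p = 0.0785). Itga8 (0.55, adjusted p = 0.0603) and Myocd (-0.48, adjusted p = 0.0705) came next by edgeR. DESeq2 called those 2 and Ppp1r14a, against 22.3% of genes. limma voom called 5 members (Tpm2, Ppp1r14a, Hspb6 and Itga8, higher, and Ldb3, lower), against 33% of all genes.

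The comparisons of genotypes ask whether losing the amino acid oxidases changes the wall without injury and under it. On water, the DKO libraries leaned below the WT libraries. The log2 fold change (DKO against WT) was negative for 29 of 31 members, while 51.1% of all genes had a positive one. The median of the members was -0.54, against 0.01 for all genes. None passed by edgeR, where 0.621% of all genes did; 11 members and 17.3% of all genes had an unadjusted p under 0.05. DESeq2 called 1 (Srf), against 5.04% of genes, and limma voom 0, against 1.06%. The ranges of 13 members did not overlap, against 21.5% of all genes, and the same 13 did not without WT water B, against 26.8%. Myh11, Myl9, Mylk, Tpm1, Cald1, Tagln, Smtn, Ppp1r12b, Synm, Flna, Actn1 and Srf lay below in DKO, and Ldb3 above.

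Synm had the most negative fold change of the members, with 52.7, 79.0 and 107 CPM in DKO water and 138, 304 and 110 CPM in WT water, where WT water B stood far above the other 2 and the nearest libraries were at 107 and 110 CPM (log2 fold change -1.21, SE 0.46, adjusted p = 0.202 by edgeR). Srf measured 37.1, 42.5 and 45.3 CPM in DKO water and 51.2, 74.7 and 48.1 CPM in WT water (-0.48, SE 0.15, adjusted p = 0.141 by edgeR). Of the exons of Synm, 84 bases overlap those of Ttc23 on the opposite strand. Both Synm and Srf were lower in every DKO library than in any WT library. The median of the members was -0.31 without DKO water A, and -0.39 without WT water B and the other 2 libraries that stand apart. Fibroblast markers summed to 232 to 426 CPM in DKO water and 531 to 889 CPM in WT water; their part was not tested.

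LAO1KO against WT on water gave 27 negative members, while 51.7% of all genes were positive. The median of the members was -0.25, against 0.01 for all genes. edgeR called 0, where 0.0531% of all genes passed; 4 members and 14.3% of all genes had an unadjusted p under 0.05. DESeq2 called 0, against 2.1% of genes, and limma voom 1 (Actn1), against 4.96%. Myh11, Flna and Actn1 lay below in LAO1KO without overlap and Ldb3 above, 4 members against 16.6% of all genes; without LAO1KO water A and WT water B, 18 members lay below and Ldb3 above, against 45.7% of all genes in either direction. Actn1 measured 65.7, 79.7 and 62.5 CPM in LAO1KO water and 108, 127 and 91.9 CPM in WT water (log2 fold change -0.66, SE 0.19, adjusted p = 0.183 by edgeR). The median was 0 without LAO1KO water C, -0.03 without WT water B, -0.50 without LAO1KO water A and -0.36 without the 3 libraries that stand apart.

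On DSS the knockouts leaned above WT. The DKO median was 0.20 and the LAO1KO median 0.25, against 0.00 and -0.01 for all genes. edgeR called 0 members in either comparison, where 0.255% (DKO) and 0.0849% (LAO1KO) of all genes passed; 2 members in DKO and 0 in LAO1KO had an unadjusted p under 0.05, against 9.69% and 6.02% of all genes. DESeq2 called 0 members in both, against 0.772% (DKO) and 0.282% (LAO1KO) of genes, and limma voom 0, against 2.37% (DKO) and 5.24% (LAO1KO). Actn1 was the only member without overlap between DKO DSS and WT DSS (21.5% of all genes), at 94.9, 105 and 102 CPM in DKO DSS and 63.5, 94.8 and 64.2 CPM in WT DSS. Pgm5 and Pdlim3 lay above in LAO1KO DSS without overlap (11.8% of all genes). Without WT DSS C, 2 members were without overlap in DKO (29.9% of all genes) and 5 in LAO1KO (21.5%). Without WT DSS A the medians were 0.00 for DKO and 0.08 for LAO1KO, and without WT DSS B 0.44 and 0.49. The DKO median was 0.40 without DKO DSS A, 0.10 without DKO DSS B and 0.12 without DKO DSS C. Without the 3 libraries that stand apart the medians were 0.26 for DKO and 0.28 for LAO1KO.

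DKO against LAO1KO, averaged over both treatments, had a median of -0.19, against 0.00 for all genes. edgeR, DESeq2 and limma voom each called 0 members, where 0.239% of all genes passed by edgeR, 0.386% by DESeq2 and 1.88% by limma voom, and 0 members had an unadjusted p under 0.05, against 7.21% of all genes. The direction of the median was not stable: it was -0.05 without LAO1KO water A, without DKO water A or without the 3 libraries that stand apart, -0.29 without LAO1KO water C or DKO water B, -0.10 without DKO DSS A, and 0.01 by limma voom.

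Whether the DSS effect differed between genotypes was tested directly. The effect in DKO minus that in WT was positive for 29 of 31 members and for 50.2% of all genes. The median of the members was 0.78, against 0.00 for all genes, and 0.56 to 1.08 with 1 library left out. No member passed by edgeR, where 0.0584% of all genes did. At an unadjusted p under 0.05 there were 10 members, against 15.4% of all genes. DESeq2 called 1 (Actn1), against 3.32% of genes, and limma voom 0, against 1.14%. For Actn1 the log2 fold change on DSS was 0.37 in DKO and -0.56 in WT, a difference of 0.93 (SE 0.26, adjusted p = 0.134 by edgeR). For Flna it was 0.45 in DKO and -0.73 in WT, a difference of 1.18 (SE 0.39, adjusted p = 0.19 by edgeR). For Myh11 it was 0.55 in DKO and -0.64 in WT, a difference of 1.18 (SE 0.46, adjusted p = 0.235 by edgeR). Ldb3 ran the other way, at -0.61 in DKO and 0.20 in WT.

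The effect in LAO1KO minus that in WT had a median of 0.50, against -0.01 for all genes. It was 0.29 without WT DSS A, 0.30 without WT water B, 0.31 without LAO1KO water C and 0.82 without LAO1KO water A. edgeR called 0 members, and 0% of all genes passed; 6 members and 15.9% of all genes had an unadjusted p under 0.05. DESeq2 called 1 (Actn1), against 2.97% of genes. limma voom called 7 (Myh11, Smtn, Hspb6, Flna, Actn1, Vcl and Srf), all higher, against 12.5% of all genes. For Flna the log2 fold change was 0.44 in LAO1KO and -0.73 in WT (difference 1.17, SE 0.39, adjusted p = 0.181 by edgeR). These differences and the WT comparison share the WT libraries. Without the 3 libraries that stand apart the medians were 0.67 for DKO and 0.64 for LAO1KO.

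Other genes with roles in smooth muscle were counted in the same fits, in which 12.9% of all genes passed in WT on DSS and 15.9% in the average. The libraries hold all cells of a colon piece. Which cells the changes in these lists came from was not tested. Of 16 genes for excitation and calcium handling, 3 fell in WT on DSS: Stim1, the calcium sensor of the sarcoplasmic reticulum (log2 fold change -0.56, SE 0.11, adjusted p = 0.00576 by edgeR), Casq2, a calcium-storing calsequestrin (-1.47), and Atp2a2, a calcium pump (-0.44). In the average over genotypes Ryr2, a calcium release channel (0.72), and Kcnma1, the pore of the calcium-activated potassium channel (0.33), rose, while Stim1 (-0.38) and Casq2 (-0.72) fell. Of 16 receptors and cyclic GMP genes, Ednrb, an endothelin receptor, fell in WT (-0.83) and in the average (-0.47). Gucy1a1, a subunit of the nitric oxide receptor guanylate cyclase, rose in the average (0.62).

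Of 13 tested genes of RhoA signalling and myosin phosphatase, Arhgef12 fell in WT (-0.43) and Rock2, a kinase that inhibits myosin phosphatase, fell in the average (-0.30). Among 13 tested partners of Srf and muscle transcription factors, Mef2a rose in WT (0.40), and Nkx3-2 (-1.92) and Klf4 (-0.90), a repressor of contractile genes in cultured smooth muscle, fell. In the average Mef2c (0.64) and Mef2a (0.27) rose and Klf4 fell (-0.64). Of 21 tested genes of the dystrophin complex and its anchorage, Dag1, the matrix receptor dystroglycan (-0.72), and Tln1, which links integrins to actin (-0.68), fell in WT, and Dag1 fell in the average (-0.43). On DSS the list medians were 0.23 in DKO, 0.21 in LAO1KO and -0.27 in WT for the dystrophin list, and 0.68 in DKO, 0.33 in LAO1KO and -0.35 in WT for the receptor list. They were 0.48 in DKO, 0.27 in LAO1KO and -0.09 in WT for the calcium list, and 0.17 in DKO, 0.21 in LAO1KO and -0.18 in WT for the list of transcription factors. The RhoA list differed from these in sign in the knockouts, at -0.11 in DKO, -0.18 in LAO1KO and -0.01 in WT. All genes had 0.02 in each genotype. No gene of these 5 lists passed in any comparison other than WT DSS against water and the average.

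Markers of other cells also moved in the average, where 15.9% of all genes passed. All 5 enteric neuron markers rose on DSS in the average, from 0.71 (Elavl4) to 0.89 (Tubb3), as did the glia markers S100b (0.67) and Sox10 (0.65) and 1 of 3 markers of interstitial cells of Cajal (Etv1, 0.50). The glia marker Gfap did not pass. The nerve plexuses of the gut lie between and beside the muscle layers. Of 6 epithelial markers, Krt20 (-0.80) and Cdh1 (-0.30) fell, and of 5 fibroblast markers Pdgfra (-0.52). The summed neuron markers ran from 123 to 271 CPM over the DSS groups and from 68.1 to 159 CPM over the water groups. The part of these cells in the rise of Ppp1r14a was not tested.

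Skeletal muscle, which shares some members such as Ldb3 and Des, left little trace: its myosin heavy chain Myh4 had 0 counts in all libraries and Myh1 had 0 in all but 1. The creatine kinase Ckm ran from 13.4 to 42.3 CPM and Acta1 from 3.75 to 30.1 CPM. The pericyte marker Rgs5 ran from 221 to 493 CPM; the share of Acta2, Myh11 and Tagln that came from vessels was not tested. Msln, a marker of the mesothelium that covers the outer wall, was highest in DKO water B at 6.02 CPM and ran from 0.159 to 2.95 CPM elsewhere. Adipoq, an adipocyte gene, ran from 0 to 109 CPM; LAO1KO DSS A had the most and DKO water B and LAO1KO water C had 0.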

How the data were processed

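The authors deposited 1 table of raw counts per gene for 18 colon libraries; per the labels' protocols, libraries were made with a stranded mRNA kit and read as paired ends of 150 bases. The builds GRCm38 and mm10, the aligner HISAT2 2.1.0, the trimmer Trimmomatic 0.38 and StringTie 2.1.3b appear, among other tools, in the submitters' processing notes; how strands and reads with several matches were counted is not given in the sources used here. Members Tagln, Hspb6, Synm and Vcl have exons that overlap those of coding genes on the opposite strand, so their counts could hold reads of the partner if strand was not used.

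Counts were filtered with filterByExpr (18848 of 45777 genes kept), scaled by TMM and fitted with edgeR 4.0.16 in R 4.3.3 as 1 mean per group over all 18 libraries (12 residual degrees of freedom), with glmQLFit (robust) and glmQLFTest. P-values were adjusted by Benjamini-Hochberg over all tested genes with a threshold of 0.05. The SE was taken as the absolute log2 fold change over the root of the F statistic. CPM uses TMM scaling, and log2 CPM a prior count of 2. Exon lengths come from GENCODE vM21 and promoters from RefSeq (GRCm38.p6). The members, the other lists and the tests were chosen with earlier results of these data known. Values in every library are given for Myh11, Actg2, Acta2, Tagln, Cnn1, Des, Myocd and Srf and for members past the threshold within a genotype or treatment; Ldb3, Ppp1r14a, Itga8, Synm, Actn1 and Pgm5 were added after their values were seen. From the other lists, up to 4 genes with the smallest p among those that passed are named. A glia marker is not reported here.

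Same-letter libraries were checked for shared deviations over genes. All 3 pairs exceeded 0.1 for WT DSS against WT water (0.19, 0.17 and 0.22). In none of the other 6 pairs of groups did all 3 exceed it (-0.30 to 0.26). A block is therefore set beside the WT result. For other comparisons its counts appear only among the alternatives, and the check gives no ground for it there. The labels give no origin for the letters. Replicates differed by more than sampling noise in every pair. Alternatives were other scaling, no filter, a replicate block, mitochondrial genes left out, DESeq2 1.42.0, limma 3.58.1 voom with library weights, the compared groups only, and each library left out. Leaving out the 3 libraries that stand apart, and the block within genotype, were chosen after seeing the data. DESeq2 shares are over the genes to which it gave an adjusted p. The main fit was tested on simulated counts of independent genes. Its pass rule covered only changes larger than the medians of the members, so it does not speak for shifts of that size.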

Additional observations from a re-analysis of the deposited data

How the results depend on the processing

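Srf in WT and Ppp1r14a in the average kept their direction in every alternative. Some medians of the members changed sign: LAO1KO on DSS (0.17) was -0.03 without LAO1KO water C, DKO against LAO1KO (-0.19) was 0.01 with voom, and the average (0.06) was -0.03 without DKO water A, -0.02 without WT DSS B and -0.01 without DKO DSS B. With voom the medians were 0.48 for LAO1KO on DSS, 0.16 for the average, -0.43 for LAO1KO against WT on water, 0.42 for DKO against WT on DSS and 0.85 for the LAO1KO minus WT difference. Members called in WT on DSS (1) became 4 with the replicate block, 9 with the replicate block within genotype, 5 with DESeq2, 4 with voom and 0 with the compared groups only, and 0 to 4 with 1 library left out: 0 without WT water B or WT DSS A, 3 without WT water C and 4 without WT DSS B. The average over genotypes (1) became 0 with no filter, 2 with the replicate block, 3 with the replicate block within genotype, 3 with DESeq2, 5 with voom, 0 without the 3 libraries that stand apart, and 0 to 2 with 1 library left out: 2 without WT DSS B, and 0 without WT water A or B, DKO water C, WT DSS C, LAO1KO DSS B, or DKO DSS B or C; the 1 member was Itga8 without LAO1KO water B and Myocd without LAO1KO water C or DKO water A. LAO1KO on DSS (0) became 10 with voom. LAO1KO against WT on water (0) became 1 with voom, and DKO against WT on water (0) became 1 with DESeq2. The difference in DSS effect between LAO1KO and WT (0) became 1 with DESeq2 and 7 with voom. That between DKO and WT (0) became 1 with DESeq2 and 5 with the replicate block within genotype (Myh11, Ppp1r12b, Flna, Actn1 and Pgm5, all higher); the DKO letters did not pass the check of pairing. The cause of these changes was not tested. Srf was -0.59 (adjusted p = 0.0945 by edgeR) with the compared groups only, and Ppp1r14a 0.58 (adjusted p = 0.0581 by edgeR) with no filter. The replicate block changed no other call. With 1 library left out, the within-group SD of the mean log2 CPM ranged from 0.08 to 0.44 in DKO DSS (0.33 with all 3), 0.08 to 0.16 in LAO1KO DSS (0.11), 0.22 to 0.57 in WT DSS (0.41), 0.01 to 0.61 in DKO water (0.49), 0.30 to 0.62 in LAO1KO water (0.44) and 0.08 to 0.38 in WT water (0.28); other scaling, mitochondrial genes left out and another prior count moved it by at most 0.03. In WT on DSS the median log2 fold change of all genes was -0.01 to 0.02 under the alternatives other than single libraries left out, against 0.02 in the main fit. With 3 libraries a group and member SEs near a median of 0.32 on the log2 scale, shifts of the size of these medians were hard to detect gene by gene.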

Other observations

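Among the tested genes that are no members, those that followed the module most closely over the 18 libraries, with group means removed, were Psd (Pearson's r = 0.98), Rbpms2 (0.98), Marveld1 (0.97), Fn1 (0.97), Cd59a (0.97), Bag2 (0.96), Ank1 (0.95), Rab23 (0.94), Mxra7 (0.94) and Itga1 (0.94). These were picked as the 10 highest, so the values describe the choice. Rbpms2 encodes an RNA-binding protein of smooth muscle, Fn1 the matrix protein fibronectin and Itga1 an integrin subunit that binds collagen. Fn1 measured 83.3, 162 and 167 CPM in DKO DSS, 141, 137 and 118 in LAO1KO DSS, and 54.4, 134 and 115 in WT DSS. On water Fn1 measured 50.8, 136 and 122 CPM in DKO, 150, 108 and 69.0 in LAO1KO, and 132, 225 and 119 in WT. Its lowest and highest libraries, DKO water A and WT water B, were those of the module. The 5 genes that ran most opposite were Gm31434 (-0.91), Naa25 (-0.85), Sema6d (-0.84), Rbbp5 (-0.82) and Oxsr1 (-0.82), each with a within-group SD of log2 CPM of 0.10 to 0.32.

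Of Hox genes, which keep a record of position along the body, Hoxb6 was lowest in WT water B at 16.7 CPM, next in LAO1KO water A at 59.7 CPM, and ran from 63.1 to 128 CPM in the other 16 libraries. Hoxd11 had 0.446 CPM in WT water B and 2.30 to 7.28 CPM in the other 17. The list of Hox genes is short and was chosen with these data known.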
